A study of Mus musculus with 12 samples.

Results

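The genes described here are the 34 members of the sterol and fatty acid synthesis programme controlled by sterol regulatory element-binding proteins (SREBPs), taken by name from the 51826 genes in the deposited tables. They comprise 18 enzymes of the sterol pathway, 6 genes that regulate SREBPs or carry sterols, and 10 genes of fatty acid synthesis. All 34 members passed the filter on low counts and were among the 16676 genes tested. They were followed in MC38 cells, a mouse colorectal carcinoma line, in which poly-A RNA was sequenced. The 4 groups, named here by sample title, held 3 libraries each. KO + IFN cells carried a guide RNA-directed knockout of Smarcd1 and received interferon (IFN), and KO cells carried the same knockout without IFN. WT + IFN cells were wild type with IFN, and WT cells were wild type without it. The protein made from Smarcd1 belongs to the SWI/SNF (BAF) complexes, which remodel chromatin. The labels do not say which interferon was added, at what dose or for how long, how many knockout clones there were, or whether samples of a group came from separate cultures. P-values here thus reflect the spread between samples that may be technical replicates.

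SREBPs are transcription factors held in the endoplasmic reticulum membrane together with the escort protein SCAP. When membrane cholesterol falls, SCAP carries them to the Golgi, where they are cut and released to the nucleus. When sterols are plentiful, the INSIG proteins hold SCAP back. SREBP-2, encoded by Srebf2, acts mainly on genes of cholesterol synthesis, and SREBP-1, encoded by Srebf1, acts more on genes of fatty acid synthesis.

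The labels of 6 libraries conflicted. Their titles and short codes name WT + IFN and KO cells, while their genotype and treatment characteristics name the reverse. The titles were followed. Under the characteristics, the comparison of IFN in wild-type cells and that of knockout without IFN would change places, as would the comparison of IFN in knockout cells and that of knockout with IFN, whereas the interaction and the combined comparison would stay as they are. Smarcd1 RNA averaged 59.8 ± 0.97 CPM, each count divided by the TMM-scaled library size, in KO + IFN cells, 51.5 ± 3.04 in KO cells, 103 ± 18.7 in WT + IFN cells and 90.9 ± 13.1 in WT cells (SD, n = 3 each). Each library titled as knockout lay below each library titled as wild type. The knockout difference passed with IFN (log2 fold change -0.79 ± 0.13 SE, adjusted p = 0.00109 from edgeR) and without it (-0.82 ± 0.13, adjusted p = 0.000814). The remaining Smarcd1 reads do not measure the protein. The IFN-induced gene Irf1 averaged 341 ± 1.74 CPM in KO + IFN cells against 37.0 ± 2.48 in KO cells, and 296 ± 16.9 CPM in WT + IFN cells against 65.2 ± 1.80 in WT cells. The Smarcd1 and Irf1 levels thus went with the titles. Under the characteristics, Irf1 would be lower with IFN in wild-type cells, at 37.0 against 65.2 CPM. Smarcd1 would be higher in untreated knockout than in untreated wild-type cells, at 103 against 90.9 CPM.

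Libraries held 37270418 to 44174663 counts in KO + IFN cells, 39899026 to 45721356 in KO cells, 31752685 to 34884059 in WT + IFN cells and 32507348 to 36394538 in WT cells. WT replicate 2 stood apart on the third principal component, which held 8.63% of the variance, with KO replicate 1 at the other end. Mitochondrial genes took 2.58% to 2.95% of counts in KO + IFN, 1.66% to 2.54% in KO and 1.49% to 2.60% in WT + IFN libraries, and 4.76% in WT replicate 2 against 1.57% and 1.58% in the other WT libraries. The share was thus higher in every KO + IFN library than in any KO library, and its part in the results was not tested. The epithelial markers Epcam, Krt20 and Cdx2 had 0 counts in all 12 libraries, so these markers of the labelled colon origin were absent. The 9 epithelial markers summed to 1.24 to 1.47 CPM in KO + IFN, 4.27 to 5.14 in KO, 2.01 to 2.16 in WT + IFN and 5.48 to 6.38 in WT libraries. The 8 fibroblast markers, 6 of which were tested, summed to 279 to 283 CPM in KO + IFN, 506 to 517 in KO, 380.4 to 417 in WT + IFN and 559 to 623 in WT libraries. Both sums were lower with IFN in either genotype and lower with the knockout in either IFN state, and their part in the results below was not tested. Single markers did not all follow the sums. With IFN, 1 of the 6 tested fibroblast markers rose and 4 fell in each genotype. Of all genes, 5.47% rose and 7.28% fell in knockout cells, and 4.66% and 4.72% in wild-type cells. With the knockout 0 of the 2 tested epithelial markers passed in either IFN state, and 1 was lower at an unadjusted p under 0.05 in each. The 8 adipocyte and hepatocyte markers were each under 1 CPM in every group, as were the 8 lymphocyte markers. In bulk RNA, fewer cells of a type and less RNA per cell cannot be told apart.

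Promoter sequence is shown because SREBPs act at promoters, together with the factors NF-Y and Sp1. RefSeq (GRCm38.p6) gave a window of 250 bases upstream of the start for 27 of the 34 members. The windows of 4 genes on which the results turn are printed: Hmgcs1, an early enzyme of the sterol pathway, Insig1 and Srebf2, which form its feedback loop, and Fasn, which makes palmitate. Capitals mark TCACNCCAC, a sterol regulatory element sequence, or CCAAT, the sequence bound by NF-Y, on either strand, so that CCAAT on the other strand reads ATTGG. Bases that are exonic in the annotation were left out of the Insig1 and Srebf2 windows. The windows are chr13:119690101-119690350 on the plus strand (Hmgcs1), chr5:28071162-28071362 on the plus strand (Insig1), chr15:82147019-82147180 on the plus strand (Srebf2) and chr11:120824548-120824797 on the minus strand (Fasn), each written 5′ to 3′ along its gene.
Hmgcs1: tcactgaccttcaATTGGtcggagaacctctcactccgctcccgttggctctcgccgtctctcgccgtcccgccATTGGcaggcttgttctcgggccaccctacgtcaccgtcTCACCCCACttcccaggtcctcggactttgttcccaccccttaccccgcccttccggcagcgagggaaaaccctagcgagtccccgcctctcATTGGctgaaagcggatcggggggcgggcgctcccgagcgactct
Insig1: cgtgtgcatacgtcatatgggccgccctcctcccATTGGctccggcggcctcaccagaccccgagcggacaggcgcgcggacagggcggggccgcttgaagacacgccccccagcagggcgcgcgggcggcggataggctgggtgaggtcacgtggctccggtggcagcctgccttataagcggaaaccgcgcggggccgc
Srebf2: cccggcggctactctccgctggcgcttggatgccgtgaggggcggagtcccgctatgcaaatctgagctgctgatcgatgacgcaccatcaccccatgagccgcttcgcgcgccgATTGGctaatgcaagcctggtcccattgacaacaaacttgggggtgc
Fasn: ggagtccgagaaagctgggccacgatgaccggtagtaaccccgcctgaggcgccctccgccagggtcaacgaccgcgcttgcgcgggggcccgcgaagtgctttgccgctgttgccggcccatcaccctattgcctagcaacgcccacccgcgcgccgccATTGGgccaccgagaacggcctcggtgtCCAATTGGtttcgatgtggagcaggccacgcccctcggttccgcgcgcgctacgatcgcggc

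The element TCACNCCAC was found in the Hmgcs1 window alone among the 27, 137 bases before the start, and in 1.05% of 32851 mouse promoters. One letter shorter, TCACNCCA was also in the windows of Srebf2 and Msmo1, and was held by 3.67% of all promoters. CCAAT was in 20 of the 27 member windows (74.1%), against 35.3% of 13574 promoters of tested genes. It was in 14 of 15 sterol enzyme windows and in 2 of 7 fatty acid windows, those of Fasn and Acss2, the latter near the share of promoters of tested genes. GGGCGG, the core bound by Sp1, was in 14 of 15 sterol enzyme windows and 3 of 7 fatty acid windows, against 55.7% of promoters of tested genes. Fasn held CCAAT 3 times, at 90, 62 and 59 bases before the start, and the forward and reverse matches at 62 and 59 share bases. Both strands were searched in all cases. A member was counted if any of its RefSeq windows held the string, while the shares of promoters count each promoter entry singly. A match is a string of letters in this window and not a measured binding site.

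Most sterol enzymes rose with IFN and with the knockout, and 0 of the 18 fell in any of the comparisons of groups. With IFN, 12 of the 18 enzymes rose in wild-type cells (WT + IFN over WT), with a median log2 fold change of 0.60, and 0 fell. Among all tested genes, 4.66% rose and 4.72% fell in that comparison, and the median change was near 0 (-0.0008). In knockout cells (KO + IFN over KO) 13 of 18 rose with a median of 0.74 and 0 fell, against 5.47% and 7.28% of all genes. With the knockout and no IFN (KO over WT), 15 of 18 rose with a median of 0.55 and 0 fell, against 6.43% and 10.6% of all genes. With only the KO and WT libraries in the fit that count was 8, as Mvk, Fdps, Fdft1, Sqle, Lss, Ebp and Dhcr7 no longer passed (adjusted p 0.0629 to 0.0905). Of all genes that fit called 380 of 16026 higher, against 1073 of 16676 in the fit of all 12 libraries. With IFN present (KO + IFN over WT + IFN), 12 of 18 rose with a median of 0.52 and 0 fell, against 5.11% and 10.6% of all genes. Between KO + IFN and WT cells all 18 were higher, with a median of 1.26 and a range of 0.42 to 1.82, against 9.94% of all genes higher and 15.1% lower. The counts are from edgeR's quasi-likelihood test at an adjusted p under 0.05. At an unadjusted p under 0.05 and with DESeq2 or limma, 0 sterol enzymes were lower in any of these comparisons as well. Without WT 2 and KO 1, the libraries that stood apart, 12 sterol enzymes rose with IFN in each genotype, 16 and 13 with the knockout in cells with and without IFN, and all 18 in the combined comparison. Of all 16850 genes in that fit, 1270 and 1349 rose with IFN in knockout and wild-type cells. With the knockout 1922 and 1147 rose with and without IFN, and 2493 rose in the combined comparison. The fit of all libraries called 913, 777, 852, 1073 and 1658 of 16676 in the same order.

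**Figure D1:**
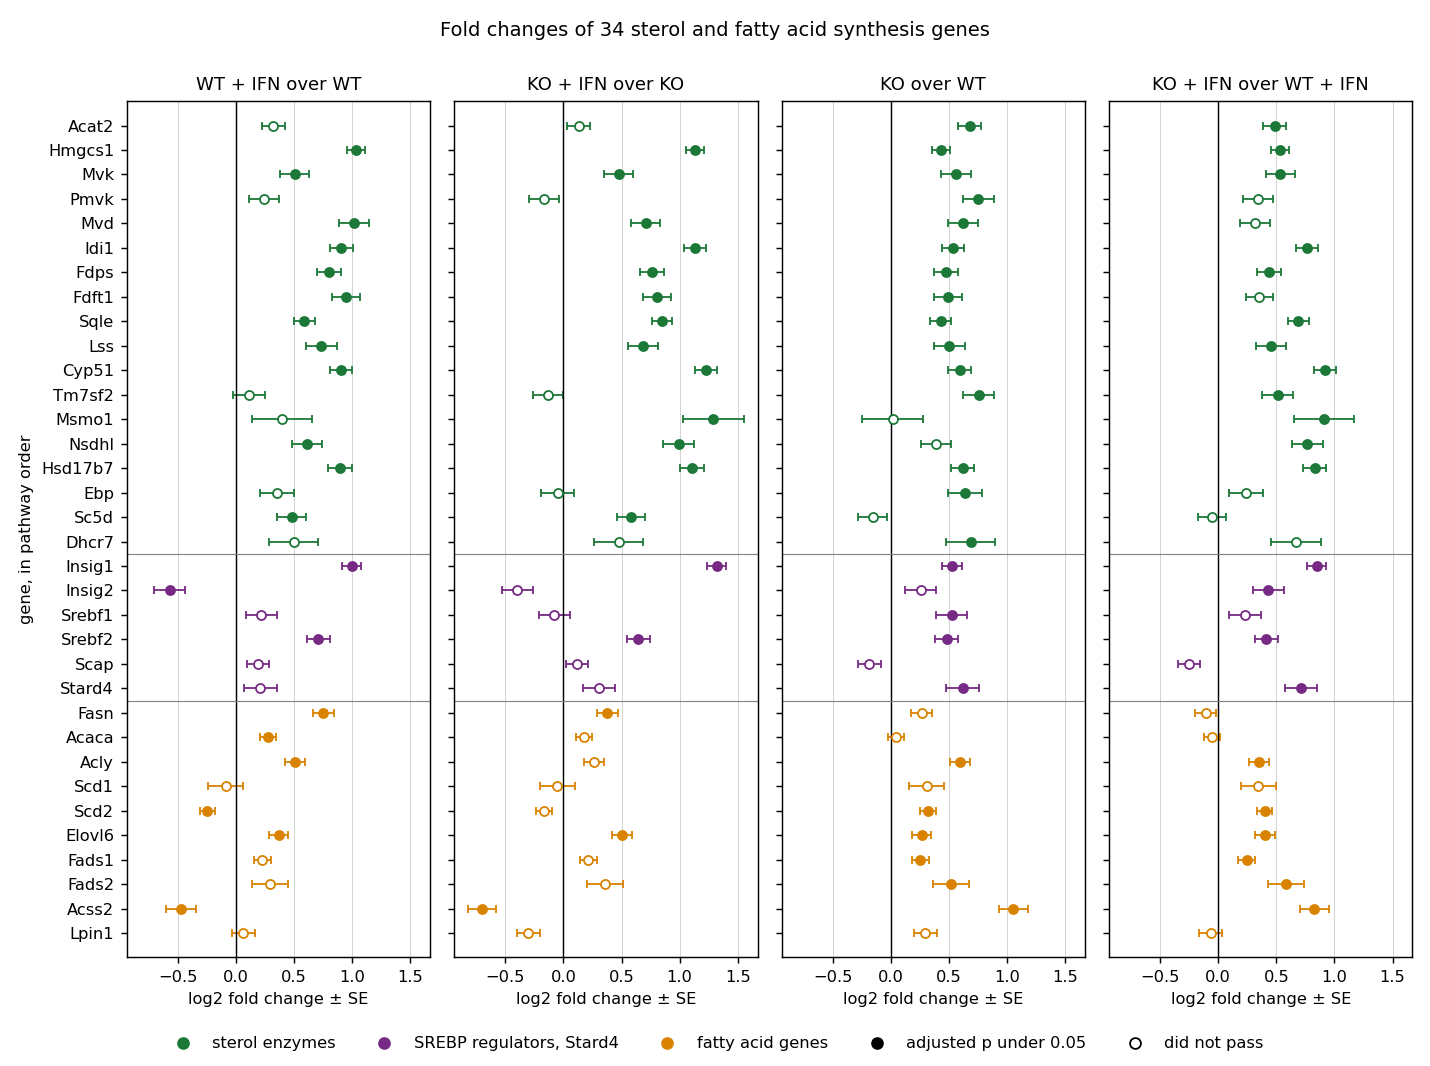
Log2 fold change with its standard error for each of the 34 genes (rows, in pathway order) in 4 comparisons (panels), each named with the numerator first; filled points passed the test and open points did not. Most sterol enzymes lie right of 0 in every panel, while the fatty acid genes Scd2 and Acss2 lie left of 0 with IFN and right of 0 with the knockout.

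The mevalonate arm turns acetyl-CoA into farnesyl diphosphate, the shared precursor of sterols and of the isoprenoids. Hmgcs1 (chromosome 13, 119690379 to 119708260, GRCm38), which makes HMG-CoA, had 127, 132 and 127 CPM in KO + IFN cells and 57.7, 60.8 and 57.7 CPM in KO cells. It had 97.0, 88.4 and 82.1 CPM in WT + IFN cells and 45.7, 42.3 and 42.8 CPM in WT cells. The 4 groups did not overlap, and their order was KO + IFN, WT + IFN, KO, WT. IFN raised Hmgcs1 by 1.13 ± 0.08 (log2 fold change ± SE) in knockout cells (adjusted p = 8.83e-07) and by 1.03 ± 0.08 in wild-type cells (adjusted p = 4.7e-06). The knockout raised it by 0.43 ± 0.08 without IFN (adjusted p = 0.00243) and by 0.53 ± 0.08 with IFN (adjusted p = 0.000456).

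Idi1 (chromosome 13, 8885501 to 8892451), which isomerises isopentenyl diphosphate, followed the same order of groups. It had 79.1, 80.9 and 74.0 CPM in KO + IFN cells, 31.6, 39.5 and 35.7 in KO cells, 47.1, 47.7 and 43.3 in WT + IFN cells and 22.9, 26.4 and 24.4 in WT cells, with no overlap. Its log2 fold change was 1.13 ± 0.10 with IFN in knockout cells and 0.53 ± 0.10 with the knockout alone. Fdps, the farnesyl diphosphate synthase gene, rose by 0.76 and 0.80 with IFN in knockout and wild-type cells, and by 0.44 and 0.47 with the knockout in cells with and without IFN. Mvk, which phosphorylates mevalonate, rose in all 4 comparisons by 0.47 to 0.56. Mvd, which decarboxylates mevalonate diphosphate, rose with IFN by 0.71 ± 0.13 in knockout and by 1.01 ± 0.13 in wild-type cells, and with the knockout by 0.62 ± 0.13 without IFN. With IFN present its knockout difference was 0.32 ± 0.13 and did not pass the test (adjusted p = 0.116).

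Acat2 and Pmvk did not follow this order. Acat2, the cytosolic thiolase gene at the entry of the pathway, had 51.5, 50.7 and 52.9 CPM in KO + IFN cells, 50.02, 47.9 and 43.9 in KO cells, 39.4, 34.9 and 36.3 in WT + IFN cells and 31.1, 25.4 and 31.9 in WT cells. Both knockout groups lay above both wild-type groups. The knockout raised Acat2 by 0.68 ± 0.10 without IFN and by 0.49 ± 0.10 with IFN, whereas the IFN differences of 0.13 and 0.32 in knockout and wild-type cells were not called (adjusted p = 0.441 and 0.0625). By DESeq2 the difference in wild-type cells passed (adjusted p = 0.0234). Pmvk, which phosphorylates mevalonate phosphate, rose by 0.75 ± 0.13 with the knockout without IFN. Its other 3 differences, of -0.17 to 0.34, did not pass by edgeR. That with the knockout and IFN passed by limma (adjusted p = 0.0186).

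The second stretch of the pathway closes squalene into lanosterol and trims it to cholesterol. Cyp51 (chromosome 5, 4081145 to 4104746), the lanosterol demethylase gene, had 215, 213 and 213 CPM in KO + IFN cells and 82.4, 93.3 and 97.8 in KO cells. It had 115, 109 and 115 CPM in WT + IFN cells and 54.0, 69.7 and 57.8 in WT cells. The KO + IFN libraries lay far above the other 9, and no groups overlapped. IFN raised Cyp51 by 1.23 ± 0.10 in knockout cells (adjusted p = 3.23e-06) and by 0.90 ± 0.10 in wild-type cells (adjusted p = 9.26e-05). The knockout raised it by 0.59 ± 0.10 without IFN (adjusted p = 0.00114) and by 0.92 ± 0.10 with IFN (adjusted p = 3.3e-05).

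Hsd17b7, a sterol ketoreductase gene, had 40.1, 39.5 and 36.9 CPM in KO + IFN cells, 15.4, 19.1 and 19.6 in KO cells, 21.9, 22.3 and 21.2 in WT + IFN cells and 11.3, 12.05 and 11.9 in WT cells. Again no groups overlapped, and the gene rose in all 4 comparisons by 0.62 to 1.11. Sqle, the squalene epoxidase gene, had 209, 200.04 and 210.4 CPM in KO + IFN cells, 105, 119 and 120.2 in KO cells, 133, 124 and 127 in WT + IFN cells and 81.8, 77.6 and 96.1 in WT cells. It rose by 0.43 to 0.85 in the 4 comparisons, and Lss, which forms lanosterol, rose by 0.45 to 0.73. Fdft1, the squalene synthase gene, rose with IFN by 0.81 and 0.94 in knockout and wild-type cells and by 0.49 with the knockout alone. Its knockout difference with IFN (0.35) did not pass by edgeR (adjusted p = 0.0636) but did by DESeq2 and limma (adjusted p = 0.0435 and 0.0464). Nsdhl, which acts on the sterol methyl groups, rose in every comparison but the knockout without IFN, where the difference was 0.39 ± 0.13 (adjusted p = 0.0597). That difference passed by DESeq2 and limma (adjusted p = 0.0376 and 0.0385).

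Msmo1, the sterol methyl oxidase gene, had the largest standard error of the 34 genes. It had 58.0, 70.8 and 38.2 CPM in KO + IFN cells, 20.7, 18.8 and 28.8 in KO cells, 26.1, 30.8 and 31.8 in WT + IFN cells and 15.3, 22.5 and 29.8 in WT cells. Only the KO + IFN libraries stood clear of the other 9. Msmo1 rose by 1.29 ± 0.26 with IFN in knockout cells (adjusted p = 0.00636) and by 0.91 ± 0.26 with the knockout in IFN-treated cells (adjusted p = 0.0332), while 0.39 ± 0.26 and 0.02 ± 0.26 in the other 2 comparisons did not pass.

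Sc5d, Ebp, Tm7sf2 and Dhcr7 were each called in only some of the 4 comparisons. Sc5d, the lathosterol desaturase gene, rose with IFN by 0.58 ± 0.12 in knockout and 0.48 ± 0.12 in wild-type cells, but its knockout differences were -0.05 and -0.16 with and without IFN and did not pass (adjusted p = 0.83 and 0.42). Ebp, a sterol isomerase gene, rose with the knockout without IFN by 0.64 ± 0.15, with no other call among the 4. Tm7sf2, a sterol reductase gene, had 3.05, 3.04 and 3.14 CPM in KO + IFN cells, 3.32, 3.45 and 3.38 in KO cells, 2.01, 2.30 and 2.16 in WT + IFN cells and 1.94, 2.22 and 1.83 in WT cells. It rose with the knockout by 0.51 ± 0.13 with IFN and 0.76 ± 0.13 without, and its IFN differences of -0.14 and 0.11 did not pass. Dhcr7, which makes the last reduction to cholesterol, rose with the knockout without IFN by 0.69 ± 0.21 (adjusted p = 0.0449). With IFN present its knockout difference was of like size, 0.67 ± 0.21, and just missed the threshold (adjusted p = 0.0517), while it passed by DESeq2 (adjusted p = 0.0151). Its IFN differences of 0.48 and 0.49 in knockout and wild-type cells did not pass (adjusted p = 0.171 and 0.181).

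Most of these calls held when any 1 library was left out, and the following did not. With IFN in wild-type cells, Mvk lost its call without WT 3, WT + IFN 1 or WT + IFN 3 (adjusted p 0.0592 to 0.0969) and Sc5d without WT 1, WT 3, WT + IFN 2 or WT + IFN 3 (0.0764 to 0.111), and with IFN in knockout cells Mvk lost it without KO 2, KO 3 or any KO + IFN library (0.0566 to 0.104). For the knockout without IFN, Dhcr7 lost its call without any of 10 libraries, all but WT + IFN 1 and WT + IFN 2 (0.0521 to 0.169), and Lss without KO 1 or WT 1 (0.0698 to 0.0757). For the knockout with IFN, Lss lost its call without KO + IFN 2, KO + IFN 3 or any WT + IFN library (0.0799 to 0.135), Msmo1 without KO + IFN 1, KO + IFN 2, WT 2 or any WT + IFN library (0.055 to 0.131), Tm7sf2 without any KO + IFN library or WT + IFN 1 (0.0634 to 0.072) and Mvk without WT + IFN 2 (0.0587). In turn, with the knockout and IFN, Pmvk passed without WT 2 (adjusted p = 0.034), Mvd without KO 1 (0.0405), Fdft1 without WT 2 or KO 1 (0.0461 and 0.00794) and Dhcr7 without WT 2, WT + IFN 2 or KO 1 (0.022, 0.0167 and 0.0477), and with the knockout alone Nsdhl passed without WT 2, WT + IFN 3 or KO 2 (0.0353, 0.0221 and 0.0448). In the combined comparison Sc5d lost its call without KO + IFN 2, KO + IFN 3, WT 1 or WT 3 (0.0679 to 0.0953). By limma, Fdps and Lss lost their calls with the knockout and IFN (0.0883 and 0.0795) and Dhcr7 with the knockout alone (0.0731). Sc5d lost its own by limma with IFN in wild-type cells (0.198) and in the combined comparison (0.242). Exons of Fdps (26.7%), Fdft1 (18.3%), Hmgcs1 (12.1%), Tm7sf2 (12.1%) and Idi1 (9.22%) overlapped another gene, and since the strand setting is not given, reads from the 2 genes may be mixed there.

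**Figure D2:**
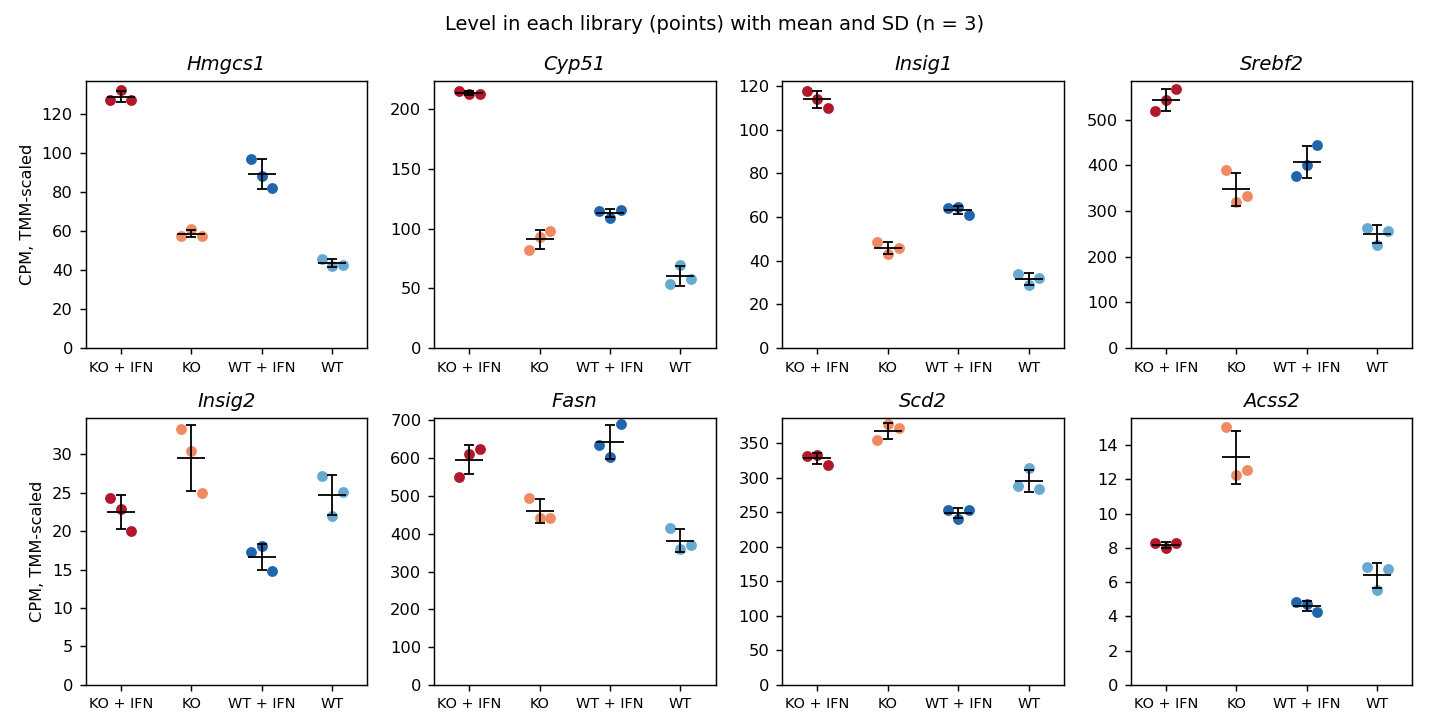
Level of 8 of the genes in each library (points) as TMM-scaled CPM, with the mean and SD of the 3 libraries of each group; the axes start at 0. Hmgcs1, Cyp51, Insig1 and Srebf2 are highest in KO + IFN cells, Fasn is highest in WT + IFN cells, and Acss2 is highest in KO cells.

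The genes that control SREBPs moved in different directions. Insig1 (chromosome 5, 28071363 to 28078662), itself an SREBP target that retains SCAP, had 118, 114 and 110.0 CPM in KO + IFN cells and 48.4, 43.0 and 45.6 in KO cells. It had 64.2, 64.6 and 61.1 CPM in WT + IFN cells and 34.1, 28.9 and 32.3 in WT cells, with no overlap between groups. IFN raised Insig1 by 1.32 ± 0.08 in knockout cells (adjusted p = 3.8e-07) and by 0.99 ± 0.08 in wild-type cells (adjusted p = 1.15e-05), and the knockout raised it by 0.85 ± 0.08 with IFN (adjusted p = 1.65e-05) and by 0.52 ± 0.08 without (adjusted p = 0.000874). Its combined log2 fold change of 1.84 ± 0.09 was the largest of the 34 genes.

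Insig2, the second INSIG gene, which is not driven by SREBPs in the same way, had 24.4, 22.9 and 20.02 CPM in KO + IFN cells, 33.3, 30.4 and 24.9 in KO cells, 17.2, 18.0 and 14.8 in WT + IFN cells and 27.2, 22.0 and 25.1 in WT cells. The libraries with IFN lay below those without it in each genotype. In wild-type cells Insig2 fell by 0.57 on the log2 scale (SE 0.13, adjusted p = 0.0183). In knockout cells the difference was -0.40 ± 0.13 and did not pass (adjusted p = 0.0701). With the knockout Insig2 was 0.43 ± 0.13 higher in IFN-treated cells (adjusted p = 0.0457).

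Srebf2 (chromosome 15, 82147181 to 82205379) had 518, 543 and 567 CPM in KO + IFN cells, 389, 321 and 332 in KO cells, 376, 402 and 444 in WT + IFN cells and 264, 226 and 257 in WT cells. The KO and WT + IFN libraries overlapped each other and lay between the other 2 groups. Srebf2 rose by 0.64 ± 0.10 and 0.71 ± 0.10 with IFN in knockout and wild-type cells (adjusted p = 0.000753 and 0.000635), and by 0.42 ± 0.10 and 0.48 ± 0.10 with the knockout in cells with and without IFN (adjusted p = 0.0113 and 0.00483). Srebf1 had 86.0, 86.1 and 79.0 CPM in KO + IFN cells, 97.2, 86.4 and 81.3 in KO cells, 67.4, 67.9 and 78.8 in WT + IFN cells and 72.4, 47.6 and 64.2 in WT cells. It rose with the knockout without IFN (0.52 ± 0.14, adjusted p = 0.019), and its IFN differences of -0.08 and 0.22 in knockout and wild-type cells did not pass (adjusted p = 0.764 and 0.37). Gene-level counts do not separate the 2 SREBP-1 isoforms.

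Scap, the escort protein gene, had 58.4 to 89.7 CPM over the 12 libraries and passed the test in none of the comparisons with all libraries in the fit, with differences of -0.25 to 0.19. Without WT 2 and KO 1 it passed as lower with the knockout with IFN (-0.25, adjusted p = 0.0133) and without IFN (-0.33, adjusted p = 0.0149, against -0.18 with all libraries). With IFN it also passed without KO 1 alone (adjusted p = 0.0447) and with only the groups compared (adjusted p = 0.0304). Stard4, which encodes a cytosolic cholesterol carrier, rose with the knockout by 0.71 ± 0.14 with IFN and by 0.62 ± 0.14 without, and its IFN differences of 0.31 and 0.21 did not pass. Of the 6 genes, 2 rose with IFN in knockout and in wild-type cells (Insig1 and Srebf2), where 5.47% and 4.66% of all genes rose. With the knockout 4 rose in each IFN state, where 5.11% of all genes rose with IFN and 6.43% without. Insig2 lost its IFN call in wild-type cells without WT 1, WT 3 or WT + IFN 3 (adjusted p 0.0543 to 0.0732), and its knockout call with IFN without KO 2, KO + IFN 1, KO + IFN 2, WT 3 or any WT + IFN library (0.0605 to 0.165). In knockout cells Insig2 passed as lower with IFN without WT 2 or KO 3 (0.0422 and 0.0326), and Stard4 passed as higher without WT + IFN 3 (0.0499). Srebf2 lost its knockout call with IFN without KO + IFN 3 or WT + IFN 1 (0.0517 to 0.052), Srebf1 lost its knockout call without KO 1 (0.0737), and its combined call without any KO + IFN library, WT 2 or WT 3 (0.0507 to 0.0847).

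The 10 fatty acid genes changed in both directions with IFN and in 1 direction with the knockout. With IFN, 2 of 10 rose and 1 fell in knockout cells (5.47% and 7.28% of all genes), and 4 rose and 2 fell in wild-type cells (4.66% and 4.72%). The 1 of 10 that fell in knockout cells is near the share of all genes. With the knockout 6 of 10 rose in each IFN state (5.11% of all genes with IFN and 6.43% without) and 0 fell (10.6% of all genes in each), and these were the same 6 genes, Acly, Scd2, Elovl6, Fads1, Fads2 and Acss2. At an unadjusted p under 0.05 and with DESeq2 or limma 0 fell with the knockout as well. The median log2 fold change of the 10 was 0.20 and 0.25 with IFN in knockout and wild-type cells, and 0.35 and 0.30 with the knockout in cells with and without IFN. Without WT 2 and KO 1, IFN raised 5 and lowered 3 of the 10 in knockout cells, and raised 5 and lowered 2 in wild-type cells, while the knockout raised 7 with IFN and 6 without. Of all 16850 genes in that fit, 1270 rose and 1512 fell with IFN in knockout cells. In wild-type cells 1349 rose and 1368 fell, and with the knockout 1922 rose with IFN and 1147 without.

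Fasn (chromosome 11, 120805846 to 120824547), the fatty acid synthase gene, had 551, 612 and 626 CPM in KO + IFN cells, 496, 441 and 441 in KO cells, 635, 603 and 690.3 in WT + IFN cells and 415, 359.7 and 371 in WT cells. The KO + IFN and WT + IFN libraries overlapped, and both groups lay above the libraries without IFN. IFN raised Fasn by 0.38 ± 0.09 in knockout cells (adjusted p = 0.0146) and by 0.75 ± 0.09 in wild-type cells (adjusted p = 0.000204). The knockout differences of -0.11 ± 0.09 with IFN and 0.27 ± 0.09 without IFN did not pass (adjusted p = 0.483 and 0.0602). Acly, which supplies cytosolic acetyl-CoA from citrate, had 489, 483 and 505 CPM in KO + IFN cells, 458, 385 and 388 in KO cells, 384, 389.6 and 387 in WT + IFN cells and 283, 246 and 285 in WT cells. It rose with IFN in wild-type cells (0.51 ± 0.09, adjusted p = 0.00251) and with the knockout by 0.35 ± 0.09 with IFN and 0.60 ± 0.09 without. Acaca, which makes malonyl-CoA, rose with IFN in wild-type cells by 0.28 ± 0.07 (adjusted p = 0.0238) and in none of the other 3 comparisons, where its differences were -0.05 to 0.18.

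Acss2 (chromosome 2, 155517948 to 155585724), which makes acetyl-CoA from acetate, moved in opposite directions with IFN and with the knockout. It had 8.28, 7.97 and 8.28 CPM in KO + IFN cells, 15.1, 12.2 and 12.5 in KO cells, 4.83, 4.72 and 4.27 in WT + IFN cells and 6.90, 5.55 and 6.74 in WT cells. No groups overlapped, and KO cells were highest. With IFN Acss2 fell by 0.70 on the log2 scale in knockout cells (SE 0.12, adjusted p = 0.00232) and by 0.47 in wild-type cells (SE 0.13, adjusted p = 0.0359). With the knockout it rose by 0.83 ± 0.13 with IFN (adjusted p = 0.000639) and by 1.05 ± 0.12 without IFN (adjusted p = 7.47e-05), the largest knockout change of the 34 genes in cells without IFN. Genes on the opposite strand cover 9.12% of its exonic length.

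The stearoyl-CoA desaturase genes Scd1 and Scd2 introduce the double bond of oleate. Scd2 had 332, 333 and 318 CPM in KO + IFN cells, 355, 378 and 371 in KO cells, 253, 240.2 and 253 in WT + IFN cells and 288, 313 and 283 in WT cells. Every knockout library lay above every wild-type library. Scd2 rose with the knockout by 0.40 ± 0.07 with IFN and 0.32 ± 0.07 without, and fell by 0.25 with IFN in wild-type cells (SE 0.07, adjusted p = 0.0395). Scd1 had 107 to 173 CPM over the 12 libraries and did not pass in any comparison with all libraries in the fit. Without WT 2, in which Scd1 was at 169 CPM against 110.4 and 115 in the other WT libraries, it passed with the knockout with IFN (0.35, adjusted p = 0.027), with the knockout without IFN (0.53, adjusted p = 0.00674, against 0.31 with all libraries) and in the combined comparison (0.48, adjusted p = 0.00761, against 0.25). Scd1 and Scd2 are close paralogues, and the sources used here do not say how reads shared between them were counted.

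Elovl6, which elongates palmitate, had 90.5, 85.1 and 78.2 CPM in KO + IFN cells, 57.9, 59.1 and 62.1 in KO cells, 64.7, 61.99 and 65.3 in WT + IFN cells and 47.1, 54.2 and 47.7 in WT cells. It was the single fatty acid gene called higher in all 4 comparisons, by 0.27 to 0.50. The desaturase genes Fads1 and Fads2, which act on polyunsaturated fatty acids, rose with the knockout by 0.24 and 0.58 with IFN, and by 0.25 and 0.52 without IFN. Their IFN differences of 0.21 to 0.36 did not pass. Lpin1, which encodes a phosphatidate phosphatase, had 8.61 to 11.7 CPM over the 12 libraries and did not pass in any comparison by edgeR with all libraries. With IFN in knockout cells, where its difference was -0.30, it passed by DESeq2 (adjusted p = 0.0316), by limma on log2 TPM (-0.52, adjusted p = 0.0452), without WT 2 (adjusted p = 0.0435) and without WT 2 and KO 1 (adjusted p = 0.0323). With the knockout without IFN, where it was 0.30, it passed by DESeq2 (adjusted p = 0.0298) and without WT 1 (adjusted p = 0.0495).

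Many fatty acid calls lay close to the threshold. With IFN in wild-type cells, Scd2 kept its call in only the fit without KO 1 among the 12 that left out a library (otherwise adjusted p 0.0569 to 0.158), Acss2 lost it without WT 1, WT 3, any WT + IFN or any KO + IFN library (0.0572 to 0.113), Acaca without WT 1, WT 3, WT + IFN 2 or WT + IFN 3 (0.0641 to 0.0816) and Elovl6 without WT 1 or WT 3 (0.0664 to 0.067). With IFN in knockout cells Fasn lost its call without KO 2, KO 3, KO + IFN 2 or KO + IFN 3 (0.0571 to 0.0716). For the knockout without IFN, Elovl6 lost its call without any library but WT 2 and WT + IFN 3 (0.0548 to 0.134), Fads1 without any library but WT 2, WT + IFN 1 and WT + IFN 3 (0.0532 to 0.0963), and Fads2 without WT 1, WT 3, WT + IFN 2, KO 1, KO 3 or any KO + IFN library (0.0513 to 0.129). For the knockout with IFN, Fads1 kept its call without KO 1, WT 2 or WT + IFN 3 and lost it without any of the other 9 (0.0567 to 0.15), Fads2 lost it without any KO + IFN library, WT + IFN 1 or WT + IFN 2 (0.0531 to 0.0923), and Acly without KO + IFN 3 (0.0585). In turn, with IFN in knockout cells Acly passed without WT 2 or KO 1 (0.0223 and 0.0148) and Fads1 without WT + IFN 3 (0.0451), and with the knockout alone Fasn passed without WT 1 (0.0417). In the combined comparison Scd2 passed without WT 2 (0.0299) and Acss2 without KO 1 (0.0364), and Acaca lost its call without KO + IFN 1, KO + IFN 3, WT 1 or WT 3 (0.0809 to 0.122).

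Set side by side, the branches separated most in KO + IFN cells. In each library the median over genes of the log2 ratio of CPM to the WT mean was taken. For the 18 sterol enzymes it was 1.27, 1.29 and 1.27 in KO + IFN, 0.59, 0.50 and 0.51 in KO, 0.56, 0.66 and 0.66 in WT + IFN and -0.01, -0.07 and 0.08 in WT libraries. For the 10 fatty acid genes it was 0.41, 0.40 and 0.43 in KO + IFN, 0.30, 0.30 and 0.33 in KO, 0.08, 0.17 and 0.33 in WT + IFN and -0.01, 0.02 and -0.05 in WT libraries. The sterol median was the higher of the pair in each of the 9 libraries that were not WT. Between KO + IFN and WT cells, 18 of 18 sterol enzymes and 6 of 10 fatty acid genes rose. The difference between the branches was given no test, because the genes were chosen with results of these data known.

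**Figure D3:**
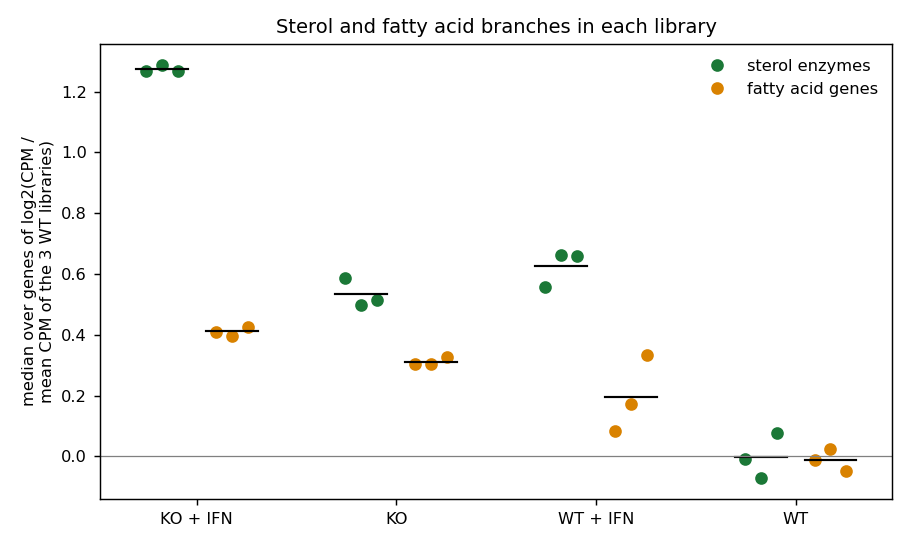
Median over genes of log2(CPM over the mean CPM of the 3 WT libraries), for 18 sterol enzymes and 10 fatty acid genes; each point is a library and each line the mean of 3. The sterol medians lie at 1.27 to 1.29 in KO + IFN cells and the fatty acid medians at 0.40 to 0.43.

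The IFN response of the sterol enzymes was shared between genotypes. The comparisons of IFN in wild-type and in knockout cells use different libraries, but come from the same fit, which pools the spread over all groups. All 12 enzymes called higher in wild-type cells were also called in knockout cells. There they made up 92.3% of the 13 called, Msmo1 being the other. The knockout comparisons without and with IFN also use different libraries of that fit. Of the 15 enzymes called without IFN and the 12 called with IFN, 10 were called in both, which is 66.7% and 83.3% of the lists. The share of all tested genes called in both comparisons of a pair is not given here. Pmvk, Mvd, Fdft1, Ebp and Dhcr7 were called without IFN alone and Msmo1 and Nsdhl with IFN alone, and the tests of these differences, given next, were passed by none. Without WT 2 and KO 1, Pmvk, Mvd, Fdft1, Ebp and Dhcr7 passed with IFN too (adjusted p 0.00181 to 0.0425), where 1922 of 16850 genes rose. For the fatty acid genes, Fasn and Elovl6 rose with IFN in both genotypes, and Acaca and Acly were called in wild-type cells alone.

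Whether the effects of the knockout and of IFN add was tested as the interaction, the IFN change in knockout cells minus that in wild-type cells on the log2 scale. At a value of 0 the fold changes multiply. The interaction passed for 0 of the 34 genes, against 1.02% of all tested genes, and was also called for 0 by DESeq2 and by limma on log2 TPM. It ranged from -0.41 to 0.90 with a median of -0.02, with 15 genes above 0 and 19 below. The 95% interval held 0 for 28 of the 34, and its limits lay 0.21 to 0.80 on each side of the estimate, with a median of 0.34. These intervals are not adjusted for the number of genes tested and are not a detection limit of the adjusted test. With 3 libraries a group departures can be missed, and a p that misses the threshold does not show that the effects add exactly.

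At an unadjusted p under 0.05 there were 6 genes, against 11.3% of all tested genes at that level. Among them the interaction was above 0 for Msmo1 (0.90, 95% interval 0.09 to 1.70), Cyp51 (0.33, 0.03 to 0.62) and Insig1 (0.32, 0.07 to 0.58). It was below 0 for Pmvk (-0.41, -0.81 to -0.01), Fasn (-0.37, -0.65 to -0.10) and Lpin1 (-0.36, -0.67 to -0.06). Fasn had the lowest adjusted p of the 34, 0.287. When WT 2 and KO 1 were left out together, the interaction of Insig1 was 0.43 and passed (adjusted p = 0.0377).

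On the linear scale most sterol enzymes gained more CPM with both than the sum of the single gains. The combined CPM change exceeded the sum for 13 of 18 sterol enzymes, 4 of the 6 regulators and 5 of 10 fatty acid genes. Among these regulators Insig2 did not gain, as its combined change was -2.30 CPM against a sum of -3.26 CPM. The share of all tested genes is not given here. Cyp51 gained 153 CPM in KO + IFN over WT cells, against a sum of 83.2 CPM for the knockout and IFN alone. For Hmgcs1 these values were 85.3 and 60.6 CPM, and for Insig1 82.1 and 45.5 CPM. Fasn gained 214 CPM, below the sum of 338, and Acly gained 221 CPM, below the sum of 254. Increases that multiply give a larger linear gain by arithmetic, and this gain was given no test. On the log2 scale the median combined change and the median sum were 1.26 and 1.12 for the sterol enzymes and 0.41 and 0.53 for the fatty acid genes.

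**Figure D4:**
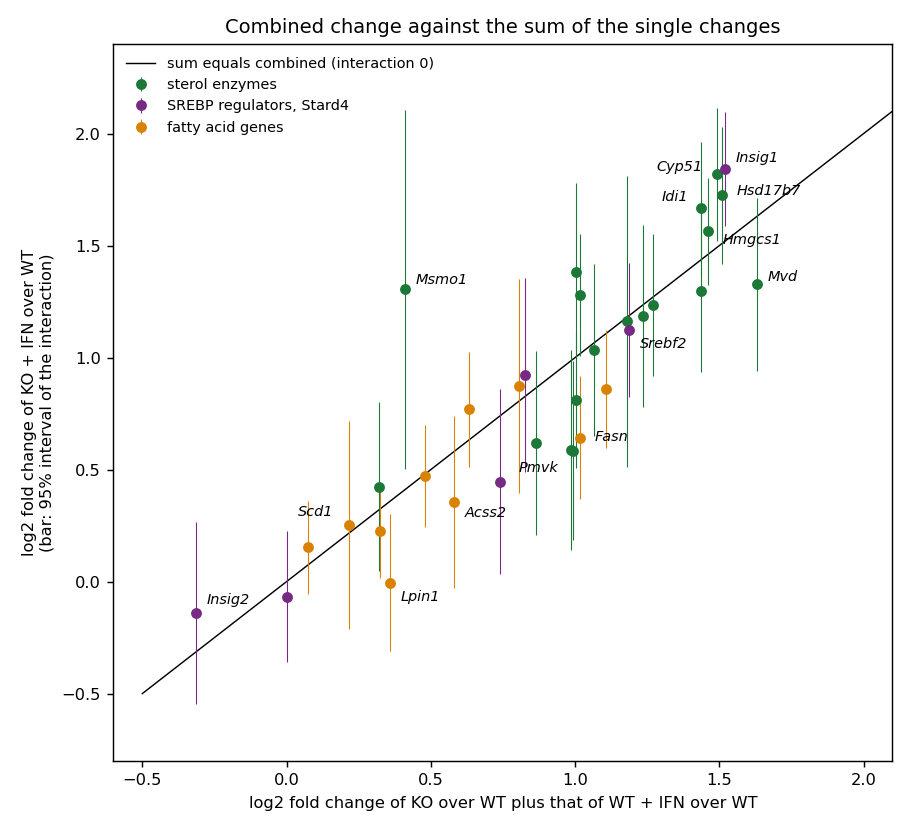
Log2 fold change of KO + IFN over WT (vertical axis) against the sum of the log2 fold changes of KO over WT and WT + IFN over WT (horizontal axis) for each of the 34 genes; vertical bars are the 95% interval of the interaction and the line marks an interaction of 0. Msmo1, Cyp51 and Insig1 lie above the line and Fasn, Pmvk and Lpin1 below it, with bars that do not reach it, and none of the 34 passed after adjustment.

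Per length, the fatty acid gene Acly and the regulator Srebf2 were among the most abundant members. In TPM, a level per length, Acly averaged 260.3 ± 12.6 in KO + IFN, 213 ± 10.7 in KO, 190.5 ± 13.4 in WT + IFN and 138 ± 6.77 in WT cells (SD, n = 3 each). Srebf2 averaged 219 ± 8.45 TPM in KO + IFN, 144 ± 11.2 in KO, 163 ± 9.74 in WT + IFN and 102 ± 8.97 in WT cells. Fdps, at 189 ± 8.94 TPM, was the sterol enzyme with the highest level in KO + IFN cells. The lowest levels in KO + IFN cells were 3.81 TPM for Lpin1, 5.41 for Tm7sf2 and 6.75 for Acss2.

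Genes next to these pathways, outside the 34, were counted in the same way. Of 13 tested genes related to sterol synthesis, 2 rose with IFN in knockout cells and 3 in wild-type cells, against 5.47% and 4.66% of all genes. Aacs, which makes acetoacetyl-CoA from acetoacetate, rose by 0.49 ± 0.12 and 0.61 ± 0.12, and Tmem97, a sterol-responsive membrane protein gene, by 0.36 ± 0.07 and 0.37 ± 0.07. With the knockout 1 of the 13 rose with IFN, a share near the 5.11% of all genes. It was Lbr (0.73 ± 0.13), which encodes a sterol reductase of the nuclear envelope. Without IFN 2 fell, against 10.6% of all genes, of which Mbtps2, a protease that releases SREBPs, fell by 0.39 on the log2 scale (adjusted p = 0.0479). Of 12 genes of the isoprenoid branch, 0 passed with IFN in either genotype. With the knockout without IFN 1 of the 12 rose, a share near the 6.43% of all genes, and limma called 0. It was Dhdds (0.53 ± 0.14), which acts in dolichol synthesis. At an unadjusted p under 0.05 the isoprenoid list had 1 gene higher and 3 lower with IFN in knockout cells and 1 higher in wild-type cells, while DESeq2 called 2 lower in knockout cells and limma 0.

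Of 27 tested genes related to fatty acid and lipid synthesis, 1 rose and 3 fell with IFN in knockout cells, and 1 rose and 2 fell in wild-type cells. These shares are near those of all genes, of which 5.47% rose and 7.28% fell in knockout cells and 4.66% rose and 4.72% fell in wild-type cells. Acacb, which makes malonyl-CoA at mitochondria, averaged 7.27 ± 0.55 CPM in KO + IFN, 14.0 ± 1.74 in KO, 11.6 ± 0.29 in WT + IFN and 16.7 ± 1.17 in WT cells. It fell by 0.94 with IFN in knockout and by 0.53 in wild-type cells on the log2 scale, the opposite direction to Acaca in wild-type cells. Of 18 tested genes of fatty acid oxidation, 0 rose and 4 fell with IFN in knockout cells, and 0 rose and 3 fell in wild-type cells, where 7.28% and 4.72% of all genes fell. Cpt1a, which admits fatty acids to mitochondria, fell by 0.48 and 0.38 on the log2 scale. With the knockout 4 oxidation genes rose with IFN and 2 without, where 5.11% and 6.43% of all genes rose, among them Cpt2 (0.29 ± 0.08 and 0.37 ± 0.08), and 0 fell, with 0 lower also at an unadjusted p under 0.05 and by DESeq2 and limma.

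Of 16 tested genes of sterol export, storage and oxysterol sensing, 1 rose and 4 fell with IFN in knockout cells, where 5.47% and 7.28% of all genes did. In wild-type cells 0 rose and 0 fell with IFN, where 4.66% and 4.72% of all genes did. At an unadjusted p under 0.05 that comparison had 1 higher and 1 lower, while DESeq2 called 1 higher and limma 0. With the knockout 0 rose and 5 fell with IFN (2 higher at an unadjusted p under 0.05, 0 by DESeq2 and limma), and 2 rose and 5 fell without IFN. Of all genes, 5.11% rose with IFN and 6.43% without, and 10.6% fell in each case. Abca1, which exports cholesterol, had 2.17, 1.75 and 1.43 CPM in KO + IFN cells, 8.59, 8.58 and 8.51 in KO cells, 4.80, 4.47 and 3.82 in WT + IFN cells and 5.07, 5.35 and 4.91 in WT cells. Its interaction of -2.03 ± 0.22 passed (adjusted p = 0.00022). Soat2, which esterifies cholesterol, averaged 1.73 ± 0.26 CPM in KO + IFN, 4.28 ± 0.18 in KO, 17.0 ± 1.24 in WT + IFN and 16.7 ± 0.78 in WT cells, and its interaction of -1.33 ± 0.17 passed as well (adjusted p = 0.00115). These were the 2 called interactions in that list. Ch25h, which makes the oxysterol 25-hydroxycholesterol, had 0 counts in all 12 libraries.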

How the data were processed

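Poly-A RNA of 12 MC38 samples was sequenced as 150 bp paired reads. The submitters' processing notes name CASAVA, Trimmomatic 0.36, FastQC 0.11.2, HISAT2 2.1.0 and GRCm38. How reads were counted and TPM computed, with which annotation and strand setting, is not given in the sources used here. Both raw counts per Ensembl gene and TPM values were deposited by the authors for 51826 genes, with 0 columns of other samples, and identifiers were matched to GENCODE M21 (51633 genes).

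Deposited counts were tested with edgeR 4.0.16 in R 4.3.3: filterByExpr (minimum count 10, minimum total 15), TMM scaling and a robust quasi-likelihood fit with 1 mean per group over all 12 libraries (8 residual degrees of freedom, common biological coefficient of variation 0.168). The 6 contrasts were IFN in each genotype, knockout in each IFN state, their interaction, and KO + IFN against WT. P-values were adjusted by Benjamini-Hochberg over the 16676 genes tested, and a gene is said to rise or fall where the adjusted p was under 0.05. Standard errors are approximate, computed from the fold change and the F statistic of its test. Values after ± are SD for CPM and TPM and SE for log2 fold changes. On simulated counts for IFN in wild-type cells, over 16292 genes, 81% of changes of log2 size 1 and 10% of those of size 0.5 were recovered. In the simulation 100 genes were changed at each size, fewer than were called in the data.

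The 34 genes and all other lists were chosen with earlier results of these data known, so no list was given a test or a p of its own. All 34 were described. From each further list, at most the 4 genes with the smallest p past the threshold in any contrast were eligible to be named, with Abca1 and Ch25h always named and Smarcd1 and the IFN-induced genes used as checks. Alternatives were DESeq2 size factors, the Wald test of DESeq2 1.42.0, no low-count filter, only the groups compared, limma 3.58.1 on log2(TPM + 0.1), the replicate number as a block, each library left out in turn, and WT 2 and KO 1 left out together. Replicates of a group differed by more than counting noise, so none was a copy of another. Promoters came from RefSeq (GRCm38.p6), with both strands searched.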

Additional observations from a re-analysis of the deposited data

How the results depend on the processing

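Of 114 called values of single genes, DESeq2 size factors lost 1, the DESeq2 Wald test 0, the replicate block 8, leaving out WT 2 and KO 1 together 7, no filter on low counts 9, limma on log2(TPM + 0.1) 11 and fitting only the groups compared 23. Leaving out a library lost 137 of 1368. None of the called values changed sign under any of these settings.

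Among the counts, sterol enzymes higher with the knockout without IFN (15) numbered 8 with only the groups compared and 13 to 15 without single libraries. Without single libraries, the sterol enzymes that rose numbered 12 to 13 with IFN in knockout cells, 10 to 12 with IFN in wild-type cells, 9 to 15 with the knockout in IFN-treated cells and 17 to 18 in the combined comparison. Fatty acid genes higher with IFN in knockout cells (2) numbered 4 with only the groups compared, 5 without WT 2 and KO 1, and 1 to 3 without single libraries. Those lower there (1) numbered 2 by the DESeq2 Wald test, 2 by limma, 3 without WT 2 and KO 1, and 1 to 2 without single libraries. Fatty acid genes higher with IFN in wild-type cells (4) numbered 2 with only the groups compared, 2 by limma and 2 to 4 without single libraries. Those lower there (2) numbered 0 with no filter, 0 with only the groups compared, 1 by limma, 1 with the replicate block and 0 to 2 without single libraries. Fatty acid genes higher with the knockout (6 in each IFN state) numbered 2 without IFN when only the groups compared were fitted, and 3 to 7 without single libraries in either state. With IFN the lowest count, 3, came without KO + IFN 3. Without IFN the lowest, also 3, came without WT 3, WT + IFN 2, KO 1, KO 3 or any KO + IFN library. The number of all genes called moved with the setting too. With only the groups compared, 334 of 15829 genes rose and 314 fell with IFN in wild-type cells. In knockout cells 1155 of 15752 rose with IFN, and with the knockout without IFN 380 of 16026 rose. Without WT 2 and KO 1, 1270 of 16850 rose and 1512 fell with IFN in knockout cells.

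The replicate numbers did not pair the samples: same-numbered samples deviated with correlations of -0.16 to 0.11, and 4 of 12 libraries correlated best with their own number. With the replicate block the sterol enzymes that rose numbered 13 and 12 with IFN in knockout and wild-type cells, and 11 and 14 with the knockout in cells with and without IFN. The interaction has no value with only the groups compared. Each group had 3 libraries, which limits what can be called. In the simulation of IFN in wild-type cells 10% of changes of log2 size 0.5 were recovered. It changed 100 genes of each size, whereas in the data 777 genes rose and 787 fell in that comparison. The 10% thus need not hold for the members. With the knockout without IFN 15 of 18 sterol enzymes passed, at a median of 0.55 over the 18, where 6.43% of all genes rose.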

Other observations

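The 6 IFN-induced genes used as a check were each called higher for the interaction, with a median of 2.62 on the log2 scale. Of all tested genes 1.02% were called for it in either direction. All 6 were lower in KO than in WT cells, where 10.6% of all genes fell. With IFN present 3 of the 6 were lower with the knockout, where 10.6% of all genes fell as well. The other 3 were not called by edgeR, while DESeq2 called 2 higher. Of 6 proliferation genes, 1 rose (Top2a) and 1 fell (Ccnb1) in each of 3 comparisons. These were IFN in knockout cells (0.50 ± 0.10 and -0.38 ± 0.08), the knockout with IFN (0.32 ± 0.10 and -0.32 ± 0.08) and KO + IFN against WT cells (0.34 ± 0.10 and -0.37 ± 0.08), where 5.47%, 5.11% and 9.94% of all genes rose and 7.28%, 10.6% and 15.1% fell. Of the 6, 0 passed with IFN in wild-type cells or with the knockout without IFN, at an unadjusted p under 0.05 and by DESeq2 and limma as well. The myeloid markers summed to 34.1 to 35.5 CPM in KO + IFN, 36.9 to 42.5 in KO, 32.6 to 39.4 in WT + IFN and 36.0 to 40.3 in WT libraries, with Adgre1 and Tyrobp at 0 counts in all 12. The endothelial markers summed to 1.43 to 1.90 CPM in KO + IFN, 1.16 to 2.31 in KO, 2.63 to 3.22 in WT + IFN and 2.04 to 2.22 in WT libraries.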
